A study of Mus musculus with 8 samples.

Results

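The genes described here are 9 platelet and megakaryocyte genes, Pf4, Gp1bb, Gp9, Itga2b, Vwf, Treml1, Rab27b, Plek and Sdpr, taken by name from 27998 gene symbols in the count table. All 9 were found in the table, and they were named with earlier results of these data known. The cells were KL cells (c-Kit+Lin-), the progenitor-rich fraction of mouse bone marrow, and 29891 of them were profiled by droplet 3' single cell RNA-seq, which counts unique molecular identifiers (UMIs, about 1 per captured RNA molecule). The mice were B6 females of 3 to 4 months. SPF mice stayed in a specific-pathogen-free facility, and CVT mice were moved from it to a conventional facility and co-housed for 1 month with mice bred there. Each group held 10 mice in 4 pools of 2 or 3 mice, SPF in pools 1, 2, 7 and 8 and CVT in pools 3, 4, 5 and 6, so the pool is the replicate and single mice cannot be told apart. The paper names no platelet antibody among those it lists, and it does not spell out which ones made up the Lin- sort. Whether the sort removed some platelet-lineage cells cannot be told from this.

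Megakaryocytes are the large marrow cells that shed platelets, and they arise from c-Kit+ progenitors and also from stem cells that already carry some platelet RNA. Platelets stick to injured vessels through the glycoprotein Ib-IX-V complex, of which Gp1bb and Gp9 encode subunits and which binds von Willebrand factor, the product of Vwf. They aggregate through the fibrinogen receptor, whose alpha chain CD41 is encoded by Itga2b. Pf4 encodes platelet factor 4, a chemokine of the alpha granules, and Treml1 a receptor kept in those granules and exposed on activation. Rab27b is a GTPase of granule release, Plek encodes pleckstrin, a substrate of protein kinase C, and Sdpr (now named Cavin2) a coat protein of caveolae.

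Depth ranged from 1888 to 4845 cells and from 19041749 to 59812346 UMIs per pool, with medians of 7529.5 to 12771.5 UMIs per cell. Cells were clustered without the 9 genes and clusters were named from marker lists. MkP-like cells (megakaryocyte progenitor-like, 1672 cells, 84 to 283 per pool) had 8 of 12 MkP markers among the 100 genes highest in them. Clusters 25 (435 cells) and 13 (995 cells) stayed unnamed. Cluster 25 had MkP and common myeloid progenitor (CMP) markers, and cluster 13 had dividing-cell genes among its leading genes. These 2 and the MkP-like cluster were those with at least 2 of the 9 genes among their 10 leading genes and are called below the clusters led by these genes. The count table held 29365 distinct cell barcodes, and 1048 cells carried a barcode also seen in another pool.

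All 9 genes were highest in MkP-like cells, and they differed in how far they reached beyond them. A level here is in CPM (the gene's UMIs over all UMIs of the state, per 1000000), given as mean ± SD over 8 pools, and the comparisons between states are descriptions with no test. Pf4 stood at 2659 ± 965 in MkP-like cells, 1198 ± 282 in cluster 13 and 833 ± 329 in cluster 25. It was 70.4 ± 30.4 in LTHSC-like cells (long-term stem cell-like, 818 cells), 24.1 ± 9.96 in CMP-like cells and 13.1 ± 8.84 in GMP-like cells (granulocyte-monocyte progenitors). With pools summed, the GMP-like level of Pf4, Gp1bb, Sdpr and Rab27b was less than 1% of the MkP-like level. The 3 clusters held 90.2% of all Pf4 UMIs, 85.5% of Gp1bb, 82.3% of Sdpr and 75.2% of Treml1. They held 65.7% of Rab27b, 60.7% of Vwf, 55.4% of Itga2b, 49.8% of Gp9 and 34.8% of Plek UMIs, and made up 10.4% of the cells. Since these clusters were picked by these same genes, high shares in them follow in part from that choice. The shares serve only to set the 9 genes beside each other.

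**Figure D1:**
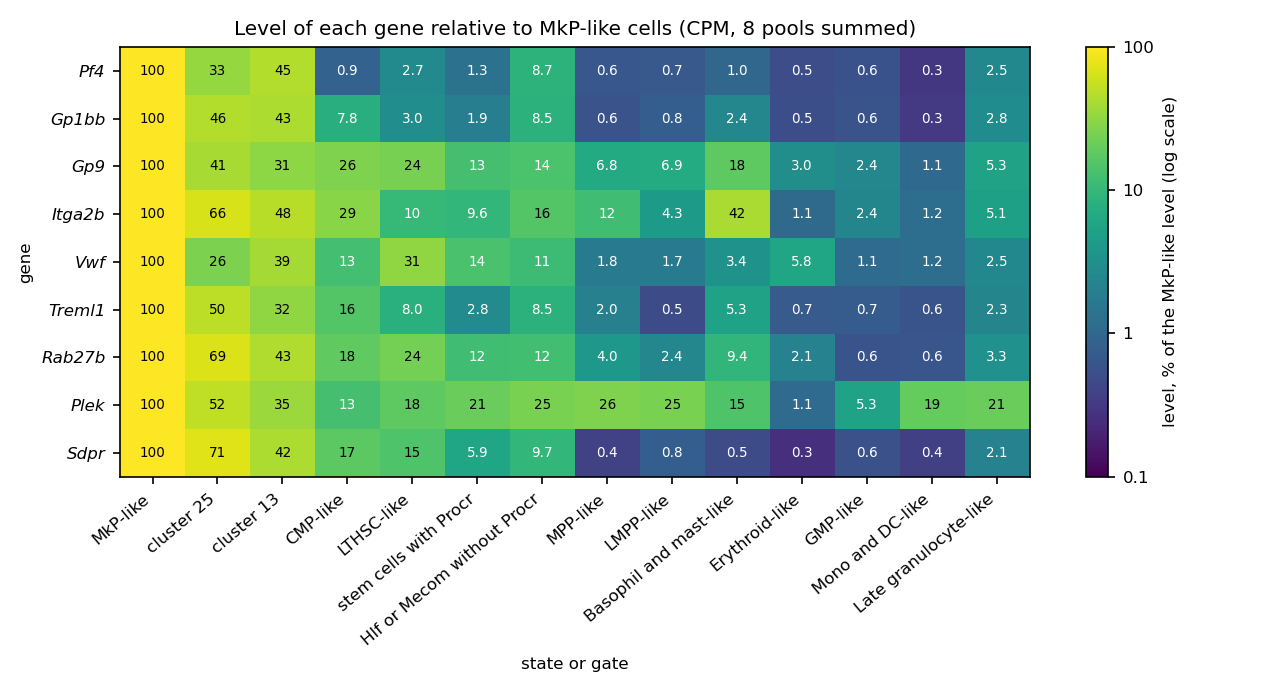
Rows are the 9 genes, columns are cell states and gates, and each number and colour (log scale) gives the level in CPM as a percent of the MkP-like level, with the 8 pools summed. Pf4 and Gp1bb fell below 10% in every state outside the 3 clusters led by these genes, while Plek was at 26.4% in MPP-like and 25.02% in LMPP-like cells.

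The adhesion receptor genes followed different paths. Gp1bb, the beta chain of glycoprotein Ib, was 152 ± 85.6 in MkP-like cells and 12.5 ± 3.53 in CMP-like cells, 7.84% of the MkP-like level. Gp9, whose product sits in the same receptor, was 138 ± 52.0 in MkP-like cells, 38.7 ± 9.06 in CMP-like, 32.9 ± 13.2 in LTHSC-like and 24.4 ± 6.73 in basophil and mast cell-like cells. These last 3 values overlapped within their pool ranges, and their order was not compared pool by pool. Itga2b was 263 ± 29.4 in MkP-like cells, 110 ± 17.4 in basophil and mast cell-like cells, 75.6 ± 10.9 in CMP-like cells and 26.3 ± 9.32 in LTHSC-like cells. Its basophil and mast cell-like level was 41.7% of the MkP-like level, against 0.989% for Pf4 and 2.42% for Gp1bb in the same cells.

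Among the granule genes, Vwf had its second highest named state in stem-like cells. It was 43.7 ± 16.9 in MkP-like cells, 15.2 ± 6.57 in LTHSC-like cells (31.4% with pools summed) and 6.11 ± 2.94 in CMP-like cells, and 2.58 ± 0.574 or less in every other named state except the 4.24 of B-like cells. Pf4 in LTHSC-like cells was 2.74% of its MkP-like level. Rab27b was 91.9 ± 21.3 in MkP-like cells, 21.6 ± 6.63 in LTHSC-like cells and 16.6 ± 5.19 in CMP-like cells, the last 2 within each other's spread. Sdpr was 157 ± 34.4, 22.4 ± 7.94 and 26.4 ± 5.01 in the same order of states, the last 2 again within each other's spread. For Rab27b and Sdpr these 2 states were not compared pool by pool. Treml1 was 76.0 ± 21.7 in MkP-like, 12.6 ± 2.63 in CMP-like and 5.44 ± 3.12 in LTHSC-like cells.

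Plek was the gene shared most widely. It was 202 ± 55.1 in MkP-like cells, 51.8 ± 8.09 in multipotent (MPP-like), 51.4 ± 4.34 in lymphoid-primed (LMPP-like), 39.9 ± 5.44 in monocyte and dendritic-like and 39.7 ± 6.57 in late granulocyte-like cells. It fell to 10.3 ± 1.2 in GMP-like and 2.79 ± 2.13 in erythroid-like cells. Pf4 was also found in late granulocyte-like cells, where 1 cluster of 264 cells, led by Retnlg and Mmp8, had 260 CPM of Pf4, and 15 of its cells (5.68%) had Pf4 at 0.05% or more of their UMIs, against 43.9% of MkP-like cells. This cluster was picked after its value was seen, and whether these droplets held more than 1 cell was not tested.

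The upstream sequences below are shown for Pf4 and Gp1bb, which were most restricted to the 3 clusters, for Gp9, whose product joins that of Gp1bb in the same receptor and whose RNA ranged wider, and for Plek, the widest. They are the 250 bases before the RefSeq gene start (assembly GRCm38.p6), written 5' to 3' on the gene's strand. The set of RefSeq upstream regions used here had an entry matched by symbol for 7 of the 9 genes (none for Vwf and Rab27b). Capitals mark GATAA, a core of GATA factor sites, and GGAAG, a core of ETS factor sites, searched on both strands, and no match of one overlapped a match of the other. Pf4 lies at chr5:90772185-90772434 (+ strand), Gp1bb at chr16:18622404-18622653 (- strand), Gp9 at chr6:87777820-87778069 (+ strand) and Plek at chr11:17008719-17008968 (- strand).
Pf4: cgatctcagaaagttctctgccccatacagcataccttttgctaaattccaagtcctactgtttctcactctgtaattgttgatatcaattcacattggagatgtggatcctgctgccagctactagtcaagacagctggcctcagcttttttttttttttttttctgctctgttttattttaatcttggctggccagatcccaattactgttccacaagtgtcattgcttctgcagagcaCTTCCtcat
Gp1bb: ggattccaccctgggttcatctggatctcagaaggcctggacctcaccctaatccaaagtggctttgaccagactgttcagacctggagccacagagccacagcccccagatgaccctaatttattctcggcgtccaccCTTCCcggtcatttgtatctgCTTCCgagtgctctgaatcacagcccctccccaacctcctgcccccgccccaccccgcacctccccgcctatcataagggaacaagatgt
Gp9: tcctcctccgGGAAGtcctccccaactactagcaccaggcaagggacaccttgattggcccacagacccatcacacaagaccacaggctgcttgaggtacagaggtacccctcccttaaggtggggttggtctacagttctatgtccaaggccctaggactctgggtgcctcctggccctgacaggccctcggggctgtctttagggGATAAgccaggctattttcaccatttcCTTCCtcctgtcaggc
Plek: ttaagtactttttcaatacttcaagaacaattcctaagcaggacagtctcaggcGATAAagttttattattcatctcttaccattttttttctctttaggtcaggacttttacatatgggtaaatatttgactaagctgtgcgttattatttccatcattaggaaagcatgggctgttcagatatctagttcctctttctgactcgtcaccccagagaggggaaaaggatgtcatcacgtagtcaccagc
GGAAG was present in 6 of the 7 genes and in 64.1% of 32851 RefSeq upstream regions of this length, and GATAA in 2 of the 7 (Gp9 and Plek) and in 22.6% of all regions. Plek was the 1 gene without GGAAG. In Pf4 the match ended 5 bases before the start, and Gp9 had GATAA from base -43 to -39 with a GGAAG match from -16 to -12. These letter matches are a description of the sequence and say nothing about factor binding.

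Over the 33 clusters the 9 genes rose and fell together to different degrees (Pearson's r of log2(CPM + 1), a description across clusters that share libraries and depth). Treml1 and Rab27b were closest (r = 0.94), followed by Treml1 and Sdpr (0.90), Gp1bb and Treml1 (0.89) and Pf4 and Sdpr (0.89). Plek was least like the rest, with r down to 0.19 against Vwf. Among other genes with at least 50 CPM in a cluster, F2rl2, a thrombin receptor of mouse platelets, ranked first for Pf4 (0.77), Gp1bb (0.88) and Sdpr (0.82). Fermt3, which encodes the integrin activator kindlin-3, ranked first for Treml1 (0.89), and F2r, another thrombin receptor, for Rab27b (0.86). Gp5, the remaining chain type of the glycoprotein Ib-IX-V complex, ranked first for Vwf (0.83). The nearest genes to Itga2b were Slc18a2 (0.90), 4930519L02Rik (0.86) and Dapp1 (0.86), and Slc18a2 peaked in the basophil and mast cell-like cluster, where it had 99.2 CPM. Gp9 was nearest to Pdzk1ip1 (0.88), which peaked in the LTHSC-like cluster at 187, and to Gata2 (0.83). Plek was nearest to Zyx (0.88), a focal adhesion gene, and to Bin2 (0.84). Others among the nearest 3 were Ppbp (0.75) and Mmrn1 (0.75) for Pf4, Fermt3 (0.81) and Tuba8 (0.78) for Gp1bb, Nt5c3 (0.81) for Gp9, Stard4 (0.83) and Slc14a1 (0.79) for Vwf, F2rl2 (0.88) and F2r (0.86) for Treml1, Fermt3 (0.84) and Gata2 (0.83) for Rab27b, Sla (0.83) for Plek, and Fermt3 (0.80) for Sdpr.

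MkP-like cells were themselves uneven. Each cell was thinned to 2759 UMIs, the smallest cell total of the table, and grouped by how many of the 12 MkP markers it still showed: 370 cells showed 0, 680 showed 1, 392 showed 2 and 230 showed 3 or more. Median depth before thinning was 7478.5, 7468, 7881.5 and 8150.5 UMIs in these groups. The share of cells with a Pf4 UMI rose from 32.4% to 49.9%, 71.4% and 84.8% across the groups. For Vwf the shares were 2.16%, 6.76%, 12.2% and 21.7%, and for Sdpr 10.5%, 23.5%, 37.8% and 47.8%. Gp9 moved least, from 22.7% to 36.5%, and Plek from 28.1% to 49.6%. Since the markers and the 9 genes come from the same cells, these are descriptions with no test. In levels, Pf4 was 14.4 times higher and Vwf 10.1 times higher in cells with 3 or more markers than in cells with 0, against 2.58 times for Gp9 and 2.46 times for Itga2b. The cells with 3 or more markers include the 1 cell of pool 6 described next.

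**Figure D2:**
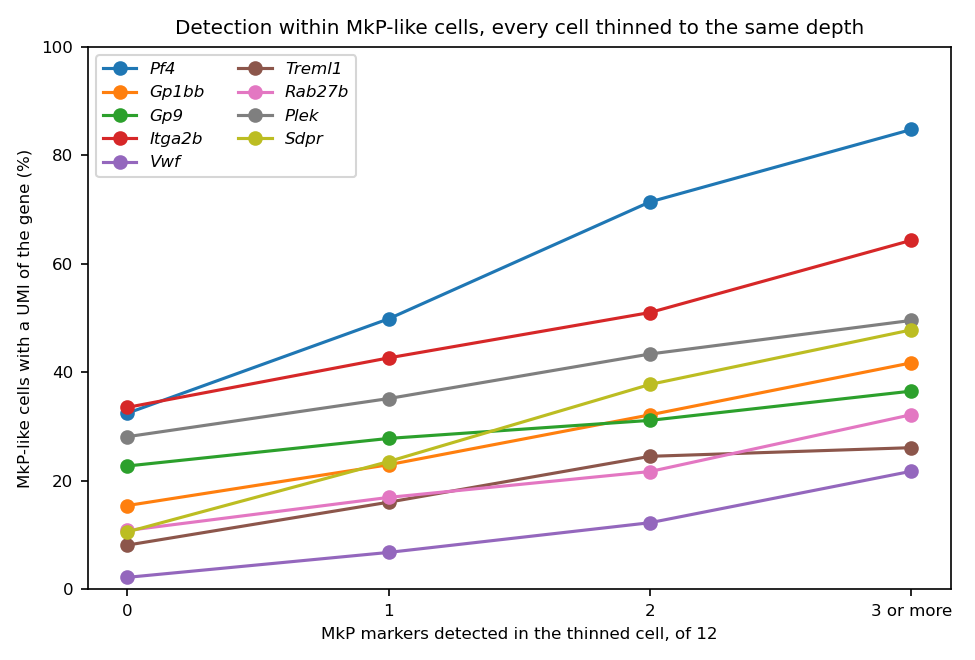
The y axis gives the percent of MkP-like cells with a UMI of each gene and the x axis the number of the 12 MkP markers detected, both after thinning every cell to 2759 UMIs. Pf4 climbs from 32.4% to 84.8%, while Gp9 climbs from 22.7% to 36.5%.

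The RNA of these genes was concentrated in few cells. The 1% of cells with the most Pf4 UMIs held 64.0% of them, and the share was 49.5% for Gp1bb, 48.3% for Vwf, 25.5% for Gp9 and 16.3% for Plek. In CVT pool 6, 1 MkP-like cell had 49732 UMIs, 4015 genes, 0.838% mitochondrial UMIs and all 12 MkP markers, and 2652 of its UMIs came from the 9 genes. That cell held 40.4% of the Gp1bb, 30.3% of the Gp9, 25.6% of the Treml1, 17.9% of the Sdpr, 15.8% of the Vwf and 11.4% of the Pf4 UMIs of its pool. Its doublet score lay above 30.3% of the cells of its pool. The housing fold changes in KL and MkP-like cells are therefore given below with and without the 1 cell of each pool that had the most UMIs of the 9 genes, a step chosen by the values under test. In SPF pools 2, 7 and 8 and CVT pool 3 that cell lay in cluster 13. MkP-like cells thus lost a cell only in SPF pool 1 and CVT pools 4, 5 and 6, so the step was uneven between the groups.

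The first housing comparison took all KL cells and asked whether the platelet genes differed between CVT and SPF mice. None of the 9 genes passed the test, and the direction within the mouse sets was not the same. Pf4 was 146, 152, 200 and 280 CPM in CVT pools 3 to 6 and 140, 174, 99.0 and 211 in SPF pools 1, 2, 7 and 8, so the groups overlapped with pool 6 highest and pool 7 lowest. Vwf was 4.26, 3.24, 5.13 and 6.26 in CVT and 4.25, 3.61, 2.42 and 4.35 in SPF pools, again with pools 6 and 7 at the ends. Brackets after a fold change hold an approximate standard error (SE), computed as the size of the change over the square root of edgeR's F statistic. The log2 fold change of CVT over SPF by edgeR was 0.37 (0.25) for Pf4, 0.42 (0.27) for Gp1bb, 0.40 (0.22) for Vwf and 0.26 (0.20) for Treml1. It lay between -0.11 and 0.14 for Sdpr, Gp9, Rab27b, Plek and Itga2b, and the median of the 9 was 0.14. Without the top cell of each pool the values were 0.38 for Pf4, 0.20 for Gp1bb, 0.36 for Vwf and 0.13 for Treml1, with a median of 0.083, and Gp9 turned to -0.12. Leaving out pool 7 took the median to 0.018 and Pf4 to 0.21, and leaving out pool 6 took Pf4 to 0.14 and Gp1bb to 0.12. The adjusted p by edgeR's quasi-likelihood test with Benjamini-Hochberg adjustment was 0.730 or more for all 9. Of the 13092 genes tested, 0 were called (0%), and 392 were higher and 529 lower before adjustment (p under 0.05). DESeq2, given 19020 genes with no filter on low counts beforehand, counted 15 calls. Among mice 1 to 10 (pools 1 to 4), 0 of 9 genes had a higher mean in CVT, and among mice 11 to 20 (pools 5 to 8) 8 of 9 had. The test of that difference by edgeR's interaction term called 0 of 9, with the smallest unadjusted p for Plek (0.0150, adjusted 0.534). How many of all genes were higher in CVT within each mouse set was not counted. A shift of these genes therefore cannot be told from a general one.

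The number of MkP-like cells did not separate the groups. Their share was 5.39%, 5.12%, 6.52% and 5.50% of cells in CVT pools 3 to 6 and 5.56%, 5.54%, 4.07% and 6.20% in SPF pools 1, 2, 7 and 8. The means were 5.63% ± 0.611 in CVT and 5.34% ± 0.901 in SPF (SD, n = 4 pools each, exact permutation test, two-sided p = 0.686), where the smallest p this design allows is 0.0286. SPF pool 7, lowest in Pf4 and Vwf, was also lowest in MkP-like share. Its part in the KL values was not tested beyond the comparisons within and without MkP-like cells that follow.

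Within MkP-like cells all 9 genes had a positive fold change in CVT, and none passed the adjusted test. Treml1 was 75.8, 79.6, 76.8 and 125 CPM in CVT pools 3 to 6 and 68.6, 66.8, 50.5 and 65.3 in SPF pools 1, 2, 7 and 8, so the groups did not overlap. Gp9 was 125, 158, 120 and 260 in CVT and 118, 108, 101 and 114 in SPF pools, and these did not overlap either. Every CVT pool lay above every SPF pool for these 2 of 9 genes and for 0.889% of the 8775 genes tested. Gp1bb was 133, 163, 110 and 353 in CVT and 123, 106, 76.4 and 150 in SPF pools, and overlapped. Pf4 was 2498, 2659, 2209 and 4909 in CVT and 2443, 2226, 1664 and 2666 in SPF pools, with pool 6 far above the rest.

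The fold changes (log2, CVT over SPF, with SE) were 0.73 (0.27) for Gp1bb, 0.62 (0.19) for Gp9, 0.55 (0.22) for Vwf, 0.53 (0.16) for Treml1, 0.50 (0.18) for Pf4, 0.34 (0.16) for Plek, 0.31 (0.15) for Sdpr, 0.11 (0.17) for Rab27b and 0.09 (0.10) for Itga2b. Their median was 0.50, and that of all genes was 0.00. By edgeR, 6 of the 9 had an unadjusted p under 0.05 in the direction of CVT, as did 2.51% of all genes. That count was 2 without pool 6, 3 without pool 7, 4 to 7 without any 1 of the other pools, and 4 without the top cell of each pool. After adjustment p was 0.994 for all 9, and 0 of 8775 genes (0%) were called by edgeR, with 220 higher and 167 lower before adjustment. DESeq2, given 14914 genes with no filter on low counts beforehand, called 0. Without a filter on low counts, edgeR called 5 of the 9 (Pf4, Gp1bb, Gp9, Vwf and Treml1) among 72 genes, where 0.456% of 14914 genes were called higher. With the top cells also left out, a combination added after seeing the data, it called 1 of the 9 (Pf4, 0.40) among 28 genes, where 0.168% of 14866 were called higher.

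Pool 6 carried much of the size of these differences. Without the top cell of each pool, Gp1bb in pool 6 was 167 and Gp9 116 CPM, and Gp9 then overlapped between the groups. Pf4 in pool 6 stayed at 4243, above the next pool's 2666, and Treml1 still did not overlap (73.6 to 77.9 in CVT, 50.5 to 68.4 in SPF). The log2 fold changes became 0.29 for Gp1bb, 0.26 for Gp9, 0.37 for Vwf, 0.29 for Treml1, 0.39 for Pf4, 0.10 for Plek, 0.20 for Sdpr, 0.03 for Itga2b and -0.02 for Rab27b, with a median of 0.26. With pool 6 left out, Pf4 was at 0.16, Gp1bb at 0.22, Gp9 at 0.30, Vwf at 0.25, Treml1 at 0.31 and Plek at 0.06. In each mouse set 8 of 9 genes had a higher mean in CVT, with log2 ratio medians of 0.20 in pools 1 to 4 and 0.72 in pools 5 to 8. The interaction test called 0 of 9, and the smallest unadjusted p was that of Itga2b (0.0134, adjusted 0.599). Here too, the count within each mouse set was not made for all genes.

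**Figure D3:**
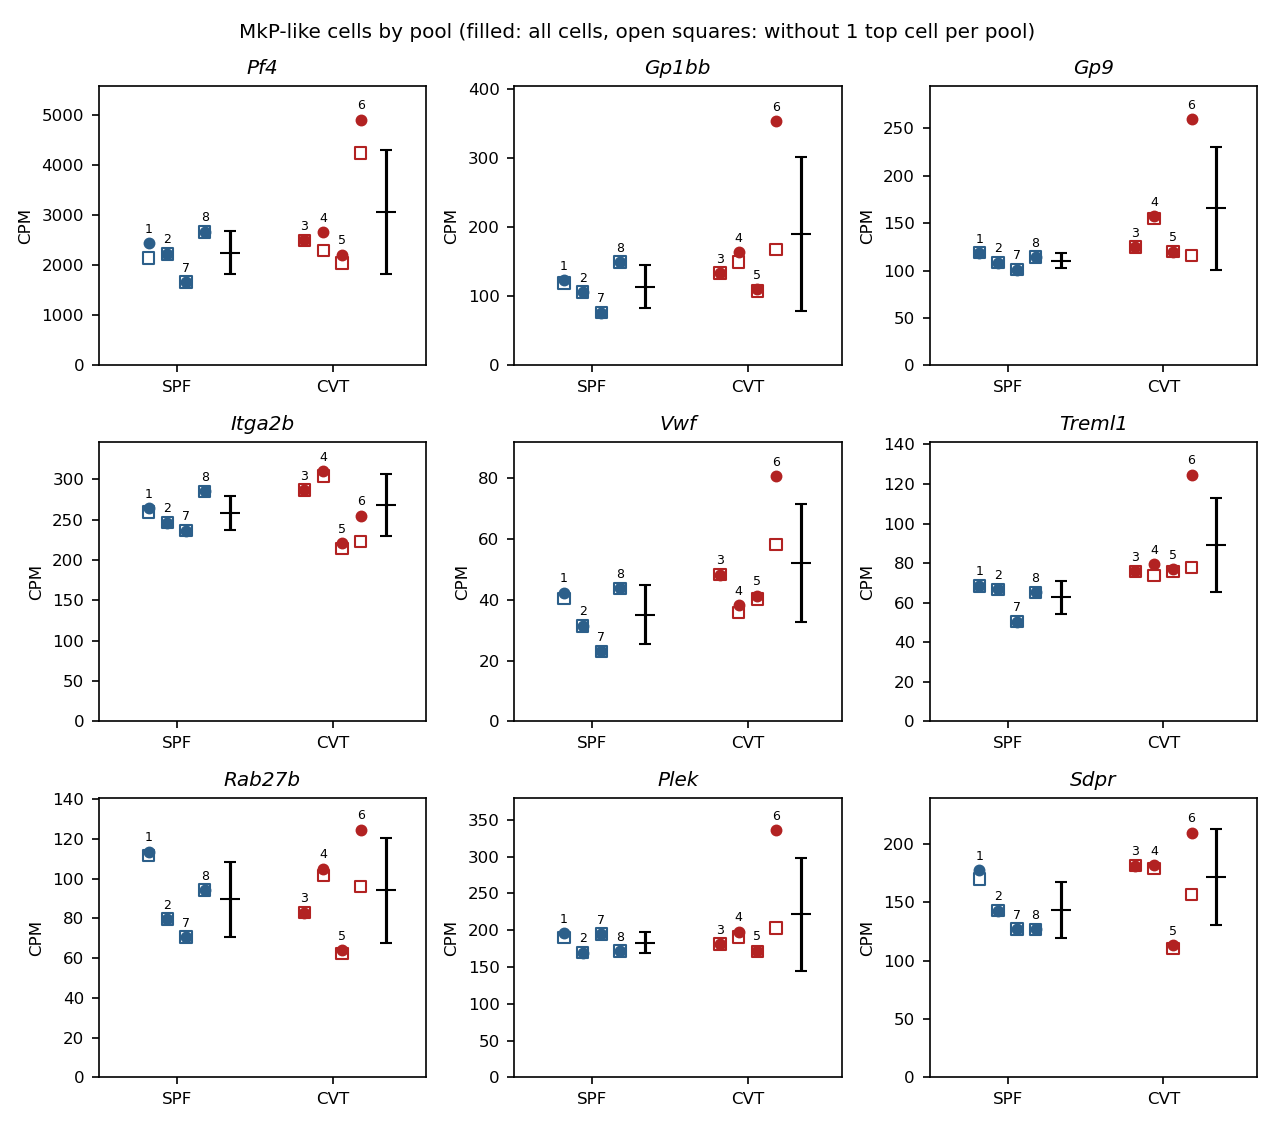
Each panel plots 1 gene in MkP-like cells, with CPM on the y axis, SPF and CVT pools on the x axis, pool numbers above the filled points, and black bars for mean ± SD (n = 4). Open squares leave out the 1 cell of each pool with the most UMIs of the 9 genes, which moves Gp1bb of pool 6 from 353 to 167 and leaves Pf4 of pool 6 at 4243. That cell was MkP-like only in pools 1, 4, 5 and 6, so the values of the other pools are unchanged.

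Other platelet and megakaryocyte genes were read from a list of 53, of which 44 were tested in MkP-like cells. None was called in either direction, 40 of the 44 had a positive fold change, and their median was 0.15 against 0.00 for all genes. All 14 tested receptor and adhesion genes were positive (median 0.22), among them the tetraspanin Cd9 at 0.38, Gp5 at 0.17 and F2r at 0.11. Of 8 granule and lipid mediator genes 7 were positive (median 0.20), with Tgfb1 at 0.12 and Angpt1 at -0.01. Ppbp, a platelet chemokine, was at 3.58 with an SE of 1.14, at a level of 94.5 ± 230 (SD, 8 pools). Of 10 cytoskeleton, signalling and release genes 9 were positive (median 0.12), with Tln1 at 0.23, Rap1b at 0.15 and Fermt3 at 0.07. Of 12 transcription factors 10 were positive (median 0.06), with Mef2c at 0.06 and Meis1 at -0.01. Without the top cell of each pool Ppbp was at -0.32, Cd9 at 0.05, Gp5 at 0.10, Tln1 at 0.15 and Rap1b at 0.09, and 35 of the 44 genes were positive with a median of 0.088. Among them were 12 of 14 receptor and adhesion genes and 5 of 8 granule and lipid mediator genes. The others were 7 of 10 cytoskeleton, signalling and release genes and 11 of 12 transcription factors. In all KL cells 23 of 47 tested list genes were positive, with a median of -0.01, equal to that of all genes.

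Outside MkP-like cells, a set that still held clusters 13 and 25, the sign was mixed, with 5 of 9 genes positive. Gp9 was 8.61, 9.23, 10.5 and 9.61 CPM in CVT pools 3 to 6 and 10.97, 12.001, 12.03 and 12.41 in SPF pools 1, 2, 7 and 8, so that every CVT pool lay below every SPF pool. This held for 1 of the 9 genes and for 5.30% of the 13036 genes tested. The log2 fold change was -0.28 (0.08) for Gp9 (edgeR adjusted p = 0.636), 0.32 (0.17) for Vwf, 0.29 (0.26) for Pf4, -0.19 (0.16) for Plek and -0.18 (0.13) for Itga2b. By edgeR 0 of 13036 genes (0%) were called, 397 were higher and 559 lower before adjustment, and DESeq2 counted 1 call among 18958 genes. Gp9 was thus on opposite sides within and outside MkP-like cells, and the difference between these effects was not tested. With all 3 clusters led by these genes left out, a step not planned and chosen by the same genes, 3 of 9 were positive. Their median was then -0.13, against 0.01 with clusters 13 and 25 kept. By edgeR 2 of the 9 were then lower at an unadjusted p under 0.05, as were 564 of 12977 genes.

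**Figure D4:**
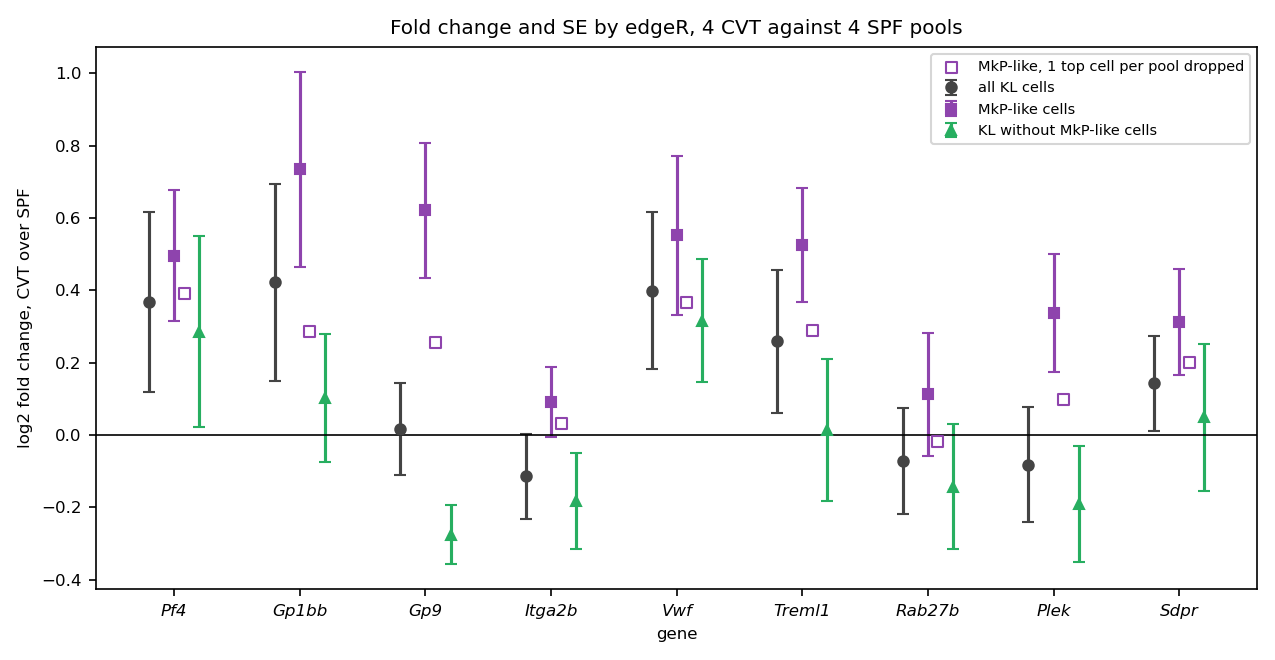
The y axis gives the log2 fold change of CVT over SPF by edgeR with bars of 1 SE, for each gene on the x axis, in all KL cells (circles), MkP-like cells (filled squares) and KL without MkP-like cells (triangles). Open squares are MkP-like cells without the 1 top cell of each pool, where Gp1bb moves from 0.73 to 0.29 and Rab27b from 0.11 to -0.02. The top cell was MkP-like only in SPF pool 1 and CVT pools 4, 5 and 6.

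Stem cells were gated as cells with a UMI of Procr, a surface protein of long-term stem cells, and a UMI of Hlf or Mecom, stem cell transcription factors. The gate held 767 cells, of which 297 lay in the LTHSC-like cluster and 3 in the clusters led by the platelet genes. Levels there were 33.4 ± 18.9 CPM for Pf4, 43.0 ± 6.71 for Plek, 24.0 ± 7.67 for Itga2b, 18.3 ± 6.17 for Gp9, 9.88 ± 5.38 for Rab27b, 8.36 ± 4.56 for Sdpr, 6.54 ± 2.97 for Vwf, 3.07 ± 2.88 for Gp1bb and 1.96 ± 1.24 for Treml1. After thinning, 1.17% of stem cells had a Vwf UMI (9 cells), against 0.192% of GMP-like cells, in which Vwf is not expected. The same shares were 8.60% and 3.04% for Pf4, 5.08% and 0.807% for Gp9, 3.26% and 0.154% for Rab27b, 3.00% and 0.115% for Sdpr and 0.652% and 0.154% for Gp1bb. Median depth before thinning was 6291 UMIs in stem cells and 15957 in GMP-like cells. Thinning thus removed more UMIs per cell from GMP-like cells. With all UMIs, Pf4 was found in 137 of 767 stem cells and in 361 of 2601 GMP-like cells, and Vwf in 27 and 21. Of the 27 stem cells with Vwf, 5 also had Pf4 and 5 had Itga2b. Among stem cells 55 of 767 (7.17%) had 3 or more of the 9 genes, against 1.04% of GMP-like and 76.3% of MkP-like cells.

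Housing made no detectable difference in stem cells at this depth. The thinned share with a Vwf UMI was 2.35%, 0%, 0.870% and 1.08% in CVT pools 3 to 6 and 2.17%, 0.980%, 1.75% and 0.943% in SPF pools 1, 2, 7 and 8, and the 0 of 57 cells in pool 4 allows a share of up to 5.26%. The means were 1.07% ± 0.971 and 1.46% ± 0.604 (n = 4 each, exact permutation test, two-sided p = 0.600). Only Pf4, Gp9, Itga2b and Plek, 4 of the 9, passed the filter on low counts of the edgeR test, so the test covers those alone. Pf4 was 62.0, 9.77, 30.5 and 57.7 CPM in CVT and 21.9, 27.3, 16.3 and 41.3 in SPF pools, and overlapped. The fold changes were 0.44 (0.31) for Pf4, 0.25 (0.28) for Itga2b, 0.15 (0.19) for Plek and 0.08 (0.32) for Gp9 on the log2 scale, and 0 of 4 were called by edgeR (adjusted p 0.958 or more), where 0.0151% of 6625 genes were. Pool 8 held 212 of the 767 cells, and without it Pf4 was at 0.89, Itga2b at 0.80, Gp9 at 0.57 and Plek at 0.09, with an unadjusted p under 0.05 for 2 of the 4 and 0 called. With every Procr cell instead of the gate, Pf4 was at -0.65. The gate counted from 46 to 212 cells per pool, and before adjustment 182 genes were higher and 129 lower, while DESeq2 made 0 calls among 14568 genes.

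A last comparison set the Procr gate against the 6254 cells with a UMI of Hlf or Mecom and none of Procr, pool by pool, using no platelet gene in either gate. Pf4 was lower with Procr in 8 of 8 pools, at 33.4 ± 18.9 against 222 ± 80.8 CPM. By edgeR with the pool as a block the log2 fold change was -2.71 (SE 0.10, adjusted p = 2.68e-24) for Pf4, -2.18 (0.28) for Gp1bb, -1.65 (0.33) for Treml1, -0.78 (0.12) for Itga2b, -0.76 (0.20) for Sdpr and -0.31 (0.09) for Plek. These 6 of 9 genes were called lower, and 12.3% of 9582 genes tested were, while 0 of 9 were called higher, against 11.9% of all genes. Gp9 (-0.17), Rab27b (-0.12) and Vwf (0.29) were not called. Of the 53 listed genes 38 were tested, 12 were higher and 11 lower. Those higher with Procr included Mmrn1 (1.23), Esam (1.203), Selp (0.65) and Cd84 (0.25), the eicosanoid enzymes Tbxas1 (0.84) and Ptgs1 (0.74), Angpt1 (0.51), Pdlim1 (0.23), and the transcription factors Meis1 (0.42), Ikzf2 (0.38) and Nfe2 (0.35). Lower were Serpine2 (-1.54), F13a1 (-0.99) and Tgfb1 (-0.37) of the granule list, the receptors Gp5 (-0.92), F2r (-0.64) and Cd9 (-0.20), Stom (-0.56), Rap1b (-0.56) and Rasgrp2 (-0.38), and the transcription factors Gata1 (-1.16) and Mef2c (-0.23).

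The cells without Procr held more cells of the 3 clusters led by the platelet genes, 10.7% against 0.391% in the Procr gate. Values with those clusters left out of both sums, a step chosen after seeing the data, are a description with no test, since the clusters were picked by these same genes and mostly leave the sum without Procr. Pf4 was 32.8 ± 18.1 with Procr and 26.5 ± 12.8 without, higher with Procr in 6 of 8 pools. Vwf was 6.55 ± 2.95 with and 2.06 ± 0.631 without Procr, higher in 8 of 8 pools. Rab27b was 9.92 ± 5.38 against 4.49 ± 1.22, higher in 7 of 8 pools. Sdpr was 7.85 ± 4.11 against 2.69 ± 0.980 and Gp9 17.97 ± 6.37 against 12.8 ± 2.62, each higher in 7 of 8 pools. Leaving out instead cells with 3 or more MkP markers kept Pf4 (-0.78) and Itga2b (-0.45) lower, the 2 called of 6 tested, against 11.7% of 9401 genes called lower and 10.6% higher.

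**Figure D5:**
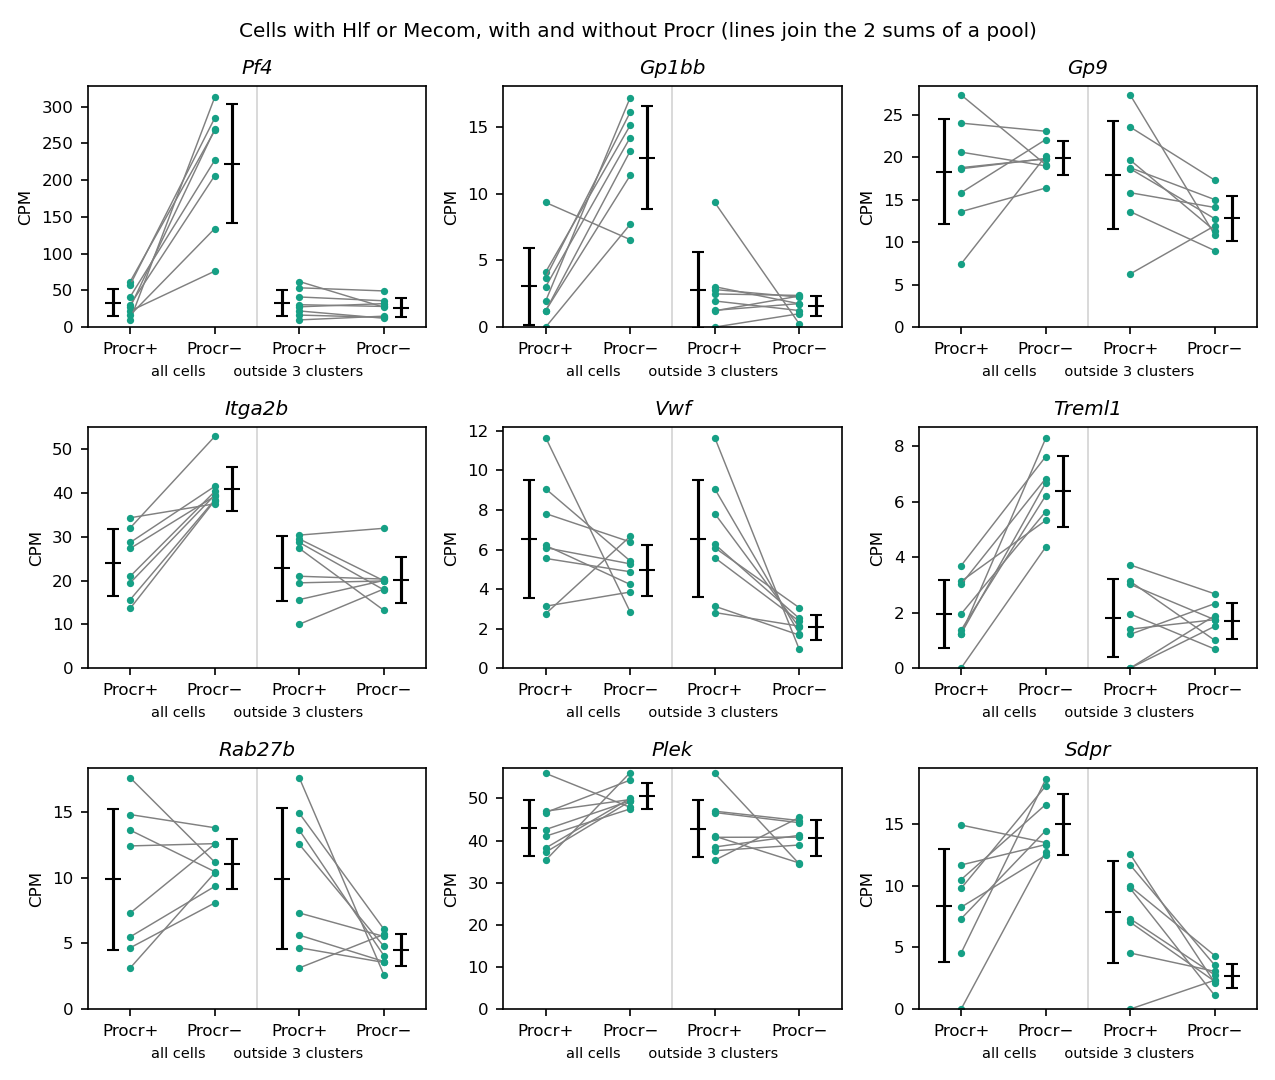
Each panel plots 1 gene, with CPM on the y axis, in cells with Hlf or Mecom with (Procr+) and without Procr (Procr−), first over all cells and then outside the 3 clusters led by the platelet genes. Grey lines join the sums of a pool and black bars show mean ± SD over 8 pools. Pf4 without Procr moves from 222 to 26.5, while Vwf with Procr stays at 6.54 and 6.55.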

How the data were processed

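UMI counts of 8 pools of sorted KL cells were used. The deposited counts were made by the authors with Cell Ranger (version not given in the sources used here; build mm9 in the submitters' processing notes) from 10x 3' v2 libraries, with no normalization, as 1 table of 27998 genes by 29891 cells. The suffix of a cell name gave its pool, and the cells per group differed slightly from those stated by the study. The 9 genes and all lists were chosen with earlier results of these data known.

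Cells were clustered in scanpy 1.11.5 (1000 variable genes without the 9 genes, 30 components, 30 neighbours, Leiden resolution 2, giving 33 clusters of which 22 were named). A cluster was named for the class whose markers were most over-represented among its 100 leading genes by fold (ordered by Fisher's exact test, at least 3 markers), unless the next class had at least 3 and 0.75 times as many, or its 10 leading genes held none of its own markers or more of another class. Scrublet marked 92 cells (0.308%, under the 0.5% taken as working), so no cells were removed as doublets. Levels are CPM of a state, per pool, and shares were computed after thinning to 2759 UMIs.

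The test was edgeR 4.0.16 on sums of counts over the cells of a pool (quasi-likelihood, TMM, filterByExpr, Benjamini-Hochberg over all genes tested, threshold 0.05), with the pool as a block for Procr, since both sums come from the same mice. DESeq2 1.42.0, other scaling, no filter, mouse sets as a block, each pool left out, a cell filter (at least 1000 genes, at most 10% mitochondrial UMIs) and other clusterings or gates were the alternatives. DESeq2 ran with its default settings, which include a filter of its own on mean counts. The gene numbers given with its calls are those it was given. The test was checked on simulated data with 200 genes changed 2-fold, and smaller changes were not simulated. It recovered from 74.5% of them (housing in stem cells) to 90.5% (the Procr comparison). False calls were 12 of 188 for housing in KL and 21 of 202 in the Procr comparison, the latter above the rate set by the threshold. Differences of shares were tested by exact permutation over pools. Pools of a group are separate libraries of different mice. The upper limit given for a share of 0 covers counting error only. SDs are spreads over pools, and SEs come from edgeR fits to the sums of the pools. The named genes are the 9 genes, the 3 listed genes per role highest in MkP-like cells and those called, and the 3 genes nearest to each of the 9, except some that are not reported here. Upstream sequences came from RefSeq (GRCm38.p6), and no coordinates of mm9 were used.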

Additional observations from a re-analysis of the deposited data

Results flagged for a closer look

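Among 62 sets of 4 pools tested (levels of the 9 genes in KL, MkP-like and stem cells, and shares of cells), 6 held 1 pool far from the other 3, where chance alone flags about 1 in 20. In KL cells SPF pool 7 was low for Rab27b (6.01 CPM, the other SPF pools 9.82 to 10.2) and for Sdpr (7.62, the others 11.8 to 12.5). It was also the pool with the lowest share of MkP-like cells (4.07%). In MkP-like cells CVT pool 6 was high for Pf4 (4909, the other CVT pools 2209 to 2659), Treml1 (125, the others 75.8 to 79.6) and Plek (336, the others 172 to 198). Without its top cell the pool stood at 4243, 77.9 and 203. SPF pool 8 had the largest share of stem cells with Procr (4.68% of cells, the other SPF pools 2.44% to 2.76%).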

How the results depend on the processing

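No paired analysis was possible because SPF and CVT pools share no replicate numbers. The Procr comparison pairs the 2 sums of each pool, and without the replicate block it called the same number of the 9 genes, 6. Of 689 refits of single genes, 640 kept direction and side of the threshold, 4 lost the call (Plek with Procr) and 6 gained it, in MkP-like cells with no filter on low counts (5 genes, and 72 of all genes called) or with that and no top cells (1 gene, and 28 of all). Removal of cells marked by Scrublet was not run, since too few were marked. The causes of the changes below were not tested. Counts over all genes moved to 15 (DESeq2) and 4 (mouse set block) in KL, to 1 (at least 3 of 12 markers) in MkP-like cells, and to 1 (DESeq2) and 2 (mouse set block) without MkP-like cells. In stem cells they moved to 28 with no filter and to 0 with DESeq2, without the highest doublet scores, with every Procr cell and with LTHSC-like cells. Leaving out 1 pool gave 0 to 4 in MkP-like cells, with 4 without pool 6, and 0 to 7 in stem cells. In the Procr comparison 1 and 2 of the 9 genes were called when the 3 clusters or the cells with 3 or more markers were dropped, the first of no weight as a test, since these genes picked the clusters.

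The following log2 fold changes turned sign, none of them called in housing. Without the top cell of each pool, Gp9 in KL was -0.12 and Rab27b in MkP-like cells -0.0183, or -0.0139 with no filter as well. In stem cells, every Procr cell gave -0.65 for Pf4, -0.0944 for Itga2b and -0.20 for Plek, LTHSC-like cells gave -0.44 for Gp9, -0.0616 for Itga2b and -0.0778 for Plek, and dropping high doublet scores gave -0.10 for Gp9. Without MkP-like cells, Treml1 was -0.0144 with the mouse set block, -0.00034 with the cell filter, -0.0325 without high doublet scores, -0.0141 at resolution 1 and -0.0452 without the 3 clusters, and Sdpr was -0.0712 without cells of 3 or more markers and -0.13 without the 3 clusters. With Procr, dropping the 3 clusters gave 0.23 for Pf4, 0.41 for Gp9, 0.10 for Itga2b, 1.18 for Rab27b and 0.00554 for Plek, and dropping cells with 3 or more markers 0.00689 for Gp9, 0.52 for Rab27b and 0.38 for Sdpr. The share of MkP-like cells differed by -0.0408 percentage points with at least 3 markers, and the share of stem cells with Vwf by 0.0455 with every Procr cell and 1.37 with LTHSC-like cells.

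With each pool left out in turn, values ranged in KL from -0.11 to 0.12 for Gp9, -0.17 to 0.0340 for Itga2b and -0.20 to 0.0283 for Plek, in MkP-like cells from -0.0643 to 0.26 for Rab27b, and in stem cells from -0.19 to 0.57 for Gp9. Without MkP-like cells they ranged from -0.0273 to 0.24 for Gp1bb, -0.14 to 0.15 for Treml1 and -0.11 to 0.19 for Sdpr, and the share of MkP-like cells from -0.133 to 0.576 percentage points. In stem cells 5 of the 9 genes had too few UMIs for the test.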
